A study of Mus musculus with 24 samples.

Results

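The hearts of mice labelled Acadl KO / Acadvl wt were compared with the hearts of mice labelled Acadl Het / Acadvl KO. Samples were chosen by these genotype labels, which gave 4 libraries in each group and 8 of the 24 libraries of the series. Acadl is the gene of the long-chain acyl-CoA dehydrogenase LCAD, and Acadvl that of VLCAD, which acts on very long chains. The mice were male, 14 weeks old, fed chow and of a mixed strain background, mostly C57BL/6N with some 129. The VLCAD knockout carried 1 mutant Acadl allele as well, so the comparison set loss of both Acadl alleles with intact Acadvl against loss of both Acadvl alleles with 1 intact Acadl allele. Each knockout also had its own control: Acadl wt / Acadvl wt (wild type, 4 libraries) for the libraries labelled Acadl KO, and Acadl Het / Acadvl wt (4 libraries) for the VLCAD knockout. The labels name no Cre or cell-type-restricted deletion. Whether the libraries of a group are from different mice is not stated in the labels, and p-values then reflect no more than the spread among the libraries, which may be technical.

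The heart draws most of its energy from long-chain fatty acids, which enter the mitochondrion as carnitine esters and are shortened in repeated cycles of beta-oxidation. An acyl-CoA dehydrogenase opens each cycle. VLCAD is bound to the inner mitochondrial membrane and takes the longest chains, while LCAD is a matrix enzyme for long and branched chains whose share of the work differs between species and tissues. Amino acid shortage and mitochondrial faults activate the integrated stress response, in which the transcription factor ATF4 induces genes of serine synthesis, one-carbon folate metabolism and amino acid import. PPAR-alpha is a fatty acid-sensing receptor that induces genes of fatty acid uptake and oxidation, and NRF2 induces genes that detoxify reactive compounds.

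The 8 libraries held 36051890 to 41767745 gene counts and 17766 to 18286 genes with a count. Each group had 3 libraries of RNA isolation batch 2 and 1, replicate 4, of batch 1. Alb, a liver transcript, exceeded 10 CPM (counts scaled to the size of the library, the unit of all levels below) in 2 of the libraries labelled Acadl KO (replicates 2 and 3) and in 1 of the VLCAD knockout (replicate 2). Ventricular cardiomyocyte markers were detected throughout, with a summed level of 90300 to 110800 CPM in libraries labelled Acadl KO and 86810 to 103100 CPM in the VLCAD knockout, and 0 of the 12 markers were called between them by edgeR or limma voom (3 at an unadjusted p under 0.05 in edgeR) and 1 by DESeq2.

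The counts of only 1 of the 2 targeted genes fell with its knockout label. Acadvl read 2222, 2429, 1915 and 1893 CPM in replicates 1 to 4 of the libraries labelled Acadl KO and 499, 734, 495 and 669 CPM in the VLCAD knockout. The groups did not overlap, and the VLCAD knockout lay below its own control, in which Acadvl averaged 1632 CPM. The difference between the knockouts was 1.82 in log2 units (SE 0.12, edgeR adjusted p = 9.078e-09). Acadl read 1923, 2100, 1856 and 1697 CPM in libraries labelled Acadl KO and 1488, 1553, 1413 and 1361 CPM in the VLCAD knockout. It was thus higher in every library labelled as its knockout, by 0.38 in log2 units (SE 0.06, edgeR adjusted p = 0.003048), and higher than in the wild type as well (0.47, edgeR adjusted p = 1.818e-05). The count of a gene sums all its exons, and reads over a deleted exon are not set apart. The counts thus followed the Acadvl label, while those of Acadl can neither bear out nor contradict its label. Every direction given for "the libraries labelled Acadl KO" rests on that label. Myl1, a myosin light chain gene on the same chromosome as Acadl (chromosome 1, start 66924296 against 66830839 for Acadl, mm10), did move with the label: over all 24 libraries it read 3.0 to 7.29 CPM in the 9 labelled Acadl KO, 16.7 to 39.2 CPM in the 11 labelled Acadl Het and 29.5 to 33.4 CPM in the 4 wild type.

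**Figure D1:**
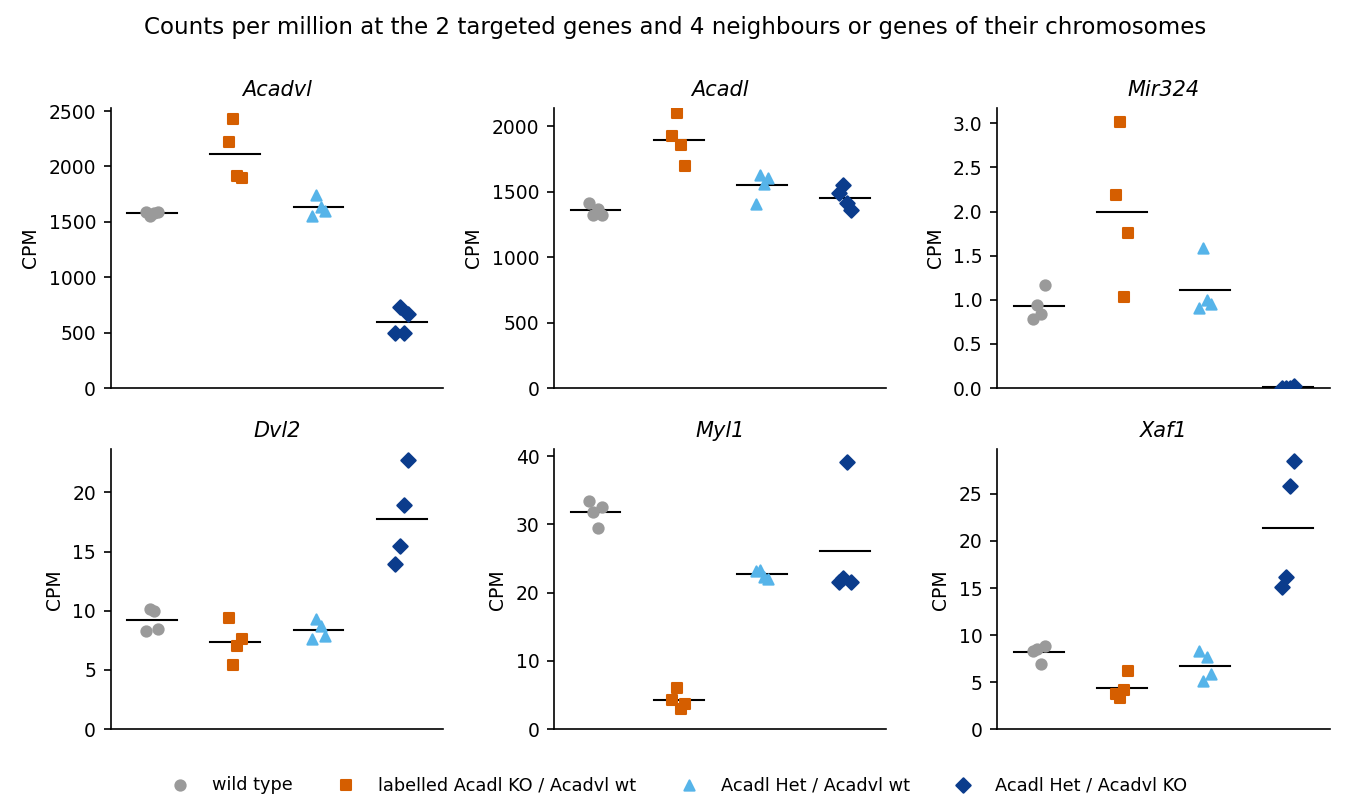
CPM (vertical axes, linear from 0) of Acadvl, Acadl and 4 genes of their chromosomes in each library of the 4 groups, with 1 point per library and a line at the mean of 4. Acadvl and Mir324 were low in the VLCAD knockout, Acadl was highest in the libraries labelled Acadl KO, and Myl1 was lowest there.

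2 neighbours of Acadvl also differed, Mir324 in the direction of Acadvl and Dvl2 in the opposite one. Mir324, the gene of the microRNA miR-324, lies in an intron of Acadvl on the opposite strand (chromosome 11, 70012043 to 70012131, mm10; the intron spans 70011771 to 70012185). It had 82, 114, 41 and 74 counts in the libraries labelled Acadl KO and 0, 0, 0 and 1 in the VLCAD knockout, against a mean of 1.11 CPM in the Acadl Het / Acadvl wt control. Counting ignored strand and the libraries were made from polyadenylated RNA, so these counts are of long transcripts across the hairpin, which cannot be told from Acadvl intron reads, and not of the mature microRNA. The 2 mature forms that the locus encodes are given from RefSeq (GRCm38.p6) with the seed, bases 2 to 8, in capitals, since the seed is what selects a microRNA's targets.
miR-324-5p: cGCAUCCCcuagggcauuggugu
miR-324-3p: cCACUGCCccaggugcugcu
Dvl2, a Wnt signal transducer whose 3′ end lies 73 bases from that of Acadvl, read 9.38, 5.43, 7.01 and 7.65 CPM in libraries labelled Acadl KO and 14, 15.5, 19 and 22.8 CPM in the VLCAD knockout. It was higher in all 4 VLCAD knockout libraries, by a log2 difference of -1.27 (SE 0.16, edgeR adjusted p = 0.000114), and had risen by 1.09 against the control of that knockout. Without strand, reads that run on from Acadvl into Dvl2 cannot be told from Dvl2 reads.

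Across the genome the knockouts differed less from each other than from their controls. At an adjusted p under 0.05, 700 of 15804 genes were called between them (4.43%), 280 higher in the libraries labelled Acadl KO (1.77%) and 420 lower (2.66%). The last 2 shares are the background for each count of list members below that compares the knockouts. Against its own control, the group labelled Acadl KO had 5874 genes called (37.2%) and the VLCAD knockout 3853 (24.4%). These last comparisons share no library. They had 2757 genes in common, of which 2745 changed the same way, 46.7% of the first list and 71.2% of the second, and 12 changed in opposite directions. Among the 700 genes, 235 had changed against control in the group labelled Acadl KO only, 218 in the VLCAD knockout only, 88 in both the same way, 11 in opposite ways and 148 in neither. Differences were mostly small, with a median size of 0.60 on the log2 scale, and 22 genes (0.139%) passed a test against a fold of 1.5. The CPM of the 4 and 4 libraries did not overlap for 503 of the called genes and for 1272 of all genes (8.05%). The direct test of whether the effects differed, each taken against its own control, called 24 genes (0.152%), 13 higher (0.0823%) and 11 lower (0.0696%), while 129 were called by DESeq2. A gene called between the knockouts and not among these 24 is a difference in level and is not shown to be a difference in response.

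The count of 700 depended on which libraries informed the spread. It was 46 when the 8 libraries were fitted alone, 54 within RNA isolation batch 2, 77 without the 6 libraries of the series above 10 CPM of Alb, and 1225 with DESeq2. Leaving out 1 of the 8 libraries gave 131 (without replicate 2 labelled Acadl KO) to 999 (without its replicate 3). With upper quartile scaling, 131 genes were higher and 489 lower. 117 genes, 33 higher and 84 lower, were called in all 8 fits that left out 1 library. Below, a gene is said to hold throughout when it is one of these.

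The genes of fatty acid use that were called were higher in the libraries labelled Acadl KO. Of 28 PPAR-alpha targets tested, 10 were called higher and 0 lower, and the median log2 difference was 0.32 against 0 over all genes. Of 23 genes of mitochondrial beta-oxidation and the carnitine shuttle, 10 were higher and 0 lower (median 0.30). The 12 acyl-CoA dehydrogenases were all above 0 (median 0.21), with 4 called: Acadvl and Acadl, and the medium-chain enzyme Acadm (0.32) and the glutaryl-CoA enzyme Gcdh (0.27). Most of these calls rested on single libraries. Leaving out 1 of the 8 left 1 to 13 of the PPAR-alpha targets and 1 to 11 of the beta-oxidation genes called, lowest without replicate 2 labelled Acadl KO, while the medians stayed at 0.26 to 0.36 and 0.24 to 0.32. Within batch 2 the counts were 1 and 0, with medians of 0.35 and 0.34.

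**Figure D2:**
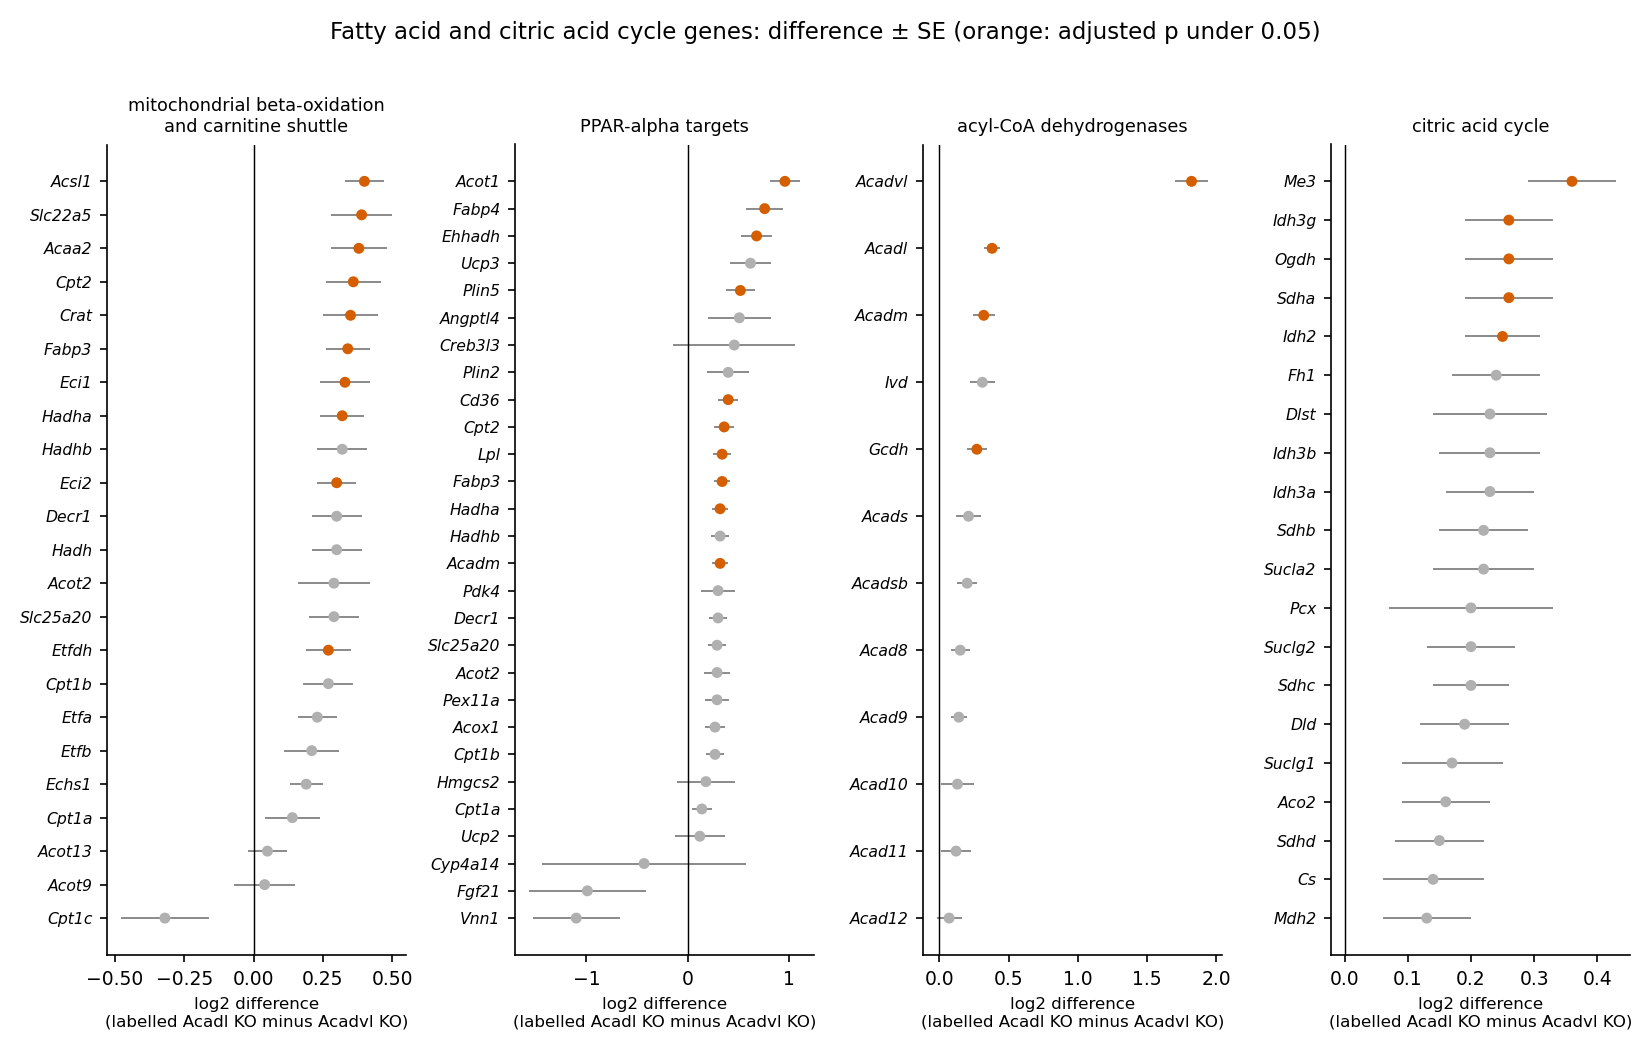
The log2 difference of each tested gene (points) with its SE (bars), labelled Acadl KO minus VLCAD knockout, for 4 gene lists. Orange points had an adjusted p under 0.05; axis ranges differ between panels, and 22 of the 23 beta-oxidation genes and all 20 citric acid cycle genes lie right of 0.

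Besides Acadvl and Acadl, 3 genes of the fatty acid lists held throughout. Acot1, a cytosolic thioesterase that releases free fatty acids from their CoA esters, read 498, 467, 338 and 396 CPM in libraries labelled Acadl KO and 215, 234, 202 and 225 CPM in the VLCAD knockout. The groups were far apart, by 0.96 in log2 units (SE 0.15, edgeR adjusted p = 0.001253). Both knockouts exceeded their controls, by 1.64 and 0.52, and those 2 effects differed (edgeR adjusted p = 0.01756). Reads can be shared with the closely related Acot genes, so its level is uncertain. Acsl1, which activates long-chain fatty acids with CoA, read 1849, 1824, 1577 and 1745 CPM against 1196, 1451, 1261 and 1397 CPM. All 4 libraries labelled Acadl KO were higher, by 0.40 (SE 0.07, edgeR adjusted p = 0.004289). It had risen by 0.50 against wild type, the VLCAD knockout differed from its control by -0.11 (edgeR adjusted p = 0.2952), and the effects differed (edgeR adjusted p = 0.008348). Ech1, an isomerase that repositions double bonds of unsaturated fatty acids, read 1963, 1956, 1875 and 1787 CPM against 1312, 1453, 1346 and 1259 CPM, again without overlap (log2 difference 0.50, SE 0.10, edgeR adjusted p = 0.008948). Here the VLCAD knockout had fallen below its control, with a log2 change of -0.52, and the libraries labelled Acadl KO stood at 0.00 against theirs. The test of the difference of these effects did not pass (edgeR adjusted p = 0.1694).

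The other called genes of these lists differed in how each knockout stood to its own control. Genes that were up in both knockouts, and more so in the libraries labelled Acadl KO, included Ehhadh, the bifunctional enzyme of peroxisomal beta-oxidation (1.79 and 1.15 against control, direct difference 0.68), and Plin5, which coats lipid droplets beside mitochondria (1.52 and 1.00, direct 0.52). Genes up against control in the libraries labelled Acadl KO with no call in the VLCAD knockout included the lipid-binding protein Fabp4 (1.11 and 0.23, direct 0.76), the fatty acid transporter Cd36 (0.49 and 0.01, direct 0.40) and the carnitine transporter Slc22a5 (0.46 and -0.03, direct 0.39). Genes lower in the VLCAD knockout with no call in the libraries labelled Acadl KO included Cpt2, which returns fatty acids from carnitine to CoA (-0.51 and -0.06, direct 0.36), the thiolase Acaa2 (-0.37 and 0.08, direct 0.38) and Acadm (-0.46 and -0.11). The lipase Lpl, which frees fatty acids from blood lipids, was called in neither (0.18 and -0.10, direct 0.34). None of the 8 differences of effects before Lpl passed the test, with edgeR adjusted p from 0.2128 to 0.3207, nor did that of Lpl (edgeR adjusted p = 0.4006). Under upper quartile scaling, Cpt2, Acaa2, Acadm, Gcdh, Slc22a5 and Lpl were no longer called between the knockouts. Ehhadh, Plin5, Fabp4 and Cd36 kept their calls under that scaling.

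Of 16 genes of fatty acid uptake and activation, 5 were higher and 0 lower (median 0.34). Some of them are also expressed by capillary endothelium. Of 12 endothelial markers, Cldn5 (0.94) and Fabp4 were higher and 0 lower (median 0.09), with a summed level of 2683 to 3934 CPM in libraries labelled Acadl KO and 2421 to 2847 CPM in the VLCAD knockout, and 0 markers at 0. Fabp4, also a gene of the uptake list, alone made up 1067 to 1972 CPM and 749.6 to 1034 CPM of these sums. The sums thus largely repeat the difference of Fabp4. Rbp7, a retinol-binding protein of capillaries, read 84.4, 269, 48 and 76.9 CPM against 15.2, 35.9, 36.4 and 34.6 CPM, and replicate 2 labelled Acadl KO was far above the rest (log2 difference 1.98, SE 0.48). Without that replicate, neither Rbp7 (edgeR adjusted p = 0.1647) nor Cldn5 (edgeR adjusted p = 0.05211) was called. Pparg, a lipid-storage receptor, read 38.4, 56, 25.8 and 41.7 CPM against 23.9, 28.5, 23.7 and 17.9 CPM, with overlapping groups (log2 difference 0.79, SE 0.22). Under upper quartile scaling Pparg was not called. In bulk tissue, fewer cells of a type and less RNA per cell cannot be told apart, and the part of endothelial cells in these values was not tested.

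Mitochondrial genes outside beta-oxidation leaned the same way by smaller amounts. Of 20 citric acid cycle genes, 5 were higher and 0 lower, and all 20 differences were above 0 (median 0.22). The 5 were the malic enzyme Me3 (0.36), the oxoglutarate dehydrogenase subunit Ogdh (0.26), the succinate dehydrogenase subunit Sdha (0.26) and the isocitrate dehydrogenases Idh3g (0.26) and Idh2 (0.25), of which Me3 held throughout. Against control, Sdha and Idh3g were lower in the VLCAD knockout (-0.31 and -0.29) and not called in the libraries labelled Acadl KO (-0.03 and 0.00). Ogdh was higher in the libraries labelled Acadl KO (0.30) and not called in the VLCAD knockout (0.08). Idh2 was called in neither (0.12 and -0.07). All 35 nuclear genes of oxidative phosphorylation were above 0 (median 0.18), but 1 was called, the complex I subunit Ndufs1 (0.25). Ndufs1 was lower than control in the VLCAD knockout (-0.25) and not called in the libraries labelled Acadl KO (0.01). The 28 mitochondrial ribosomal proteins were likewise all above 0 (median 0.16, 4 higher). Under upper quartile scaling, which moved the median of all genes to -0.04, the positive counts were 20, 35 and 26, with 1, 0 and 1 called. Me3 read 94.7, 87.6, 84 and 87.4 CPM against 61.6, 74.3, 67.3 and 72.1 CPM, the libraries labelled Acadl KO standing near their control mean of 92.5 CPM and the VLCAD knockout below its control mean of 97.3 CPM. Nnt, the transhydrogenase that makes mitochondrial NADPH, and Nadk2, the mitochondrial NAD kinase, also held throughout, at 0.34 and 0.39. So did Mlycd, which breaks down the carnitine-shuttle inhibitor malonyl-CoA (0.48), the acyl-CoA synthetase Acsf2 (0.59) and the carboxylesterase Ces1d (0.88). These last 5 were taken up after their values were seen. They differed in how the libraries labelled Acadl KO and the VLCAD knockout, in that order, stood to control. Mlycd (0.81 and 0.31) and Acsf2 (0.84 and 0.28) were up in both. Nadk2 (-0.21 and -0.54) and Ces1d (-0.67 and -1.55) were down in both. Nnt was not called in the first (0.13) and was lower in the second (-0.23).

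3 detoxifying enzymes of the NRF2 list were higher in the libraries labelled Acadl KO in every library. Nqo1, a quinone reductase, read 122, 90.2, 92 and 108 CPM against 59.6, 53.9, 63.6 and 62 CPM (log2 difference 0.79, SE 0.12, edgeR adjusted p = 0.0008751). Gsta4, a glutathione transferase for lipid peroxidation products, read 146, 120.5, 110.1 and 116 CPM against 71.6, 80.8, 74.6 and 68.3 CPM (0.74, SE 0.10, edgeR adjusted p = 0.0004612). Gsta1 read 29, 10.6, 13.8 and 16.7 CPM against 4.77, 5.21, 5.52 and 5.09 CPM (1.77, SE 0.35, edgeR adjusted p = 0.009983). All 3 held throughout, and Nqo1 and Gsta4 were also called within batch 2. All 3 had risen against wild type (Nqo1 by 0.80, Gsta4 by 0.77, Gsta1 by 2.22), and the VLCAD knockout stood at 0.22, 0.25 and 0.93 against its control, not called. Gsta1 shares reads with close copies, among them Gm3776 (1.66), so the 2 are uncertain. Over the list of 25, 4 genes were higher (with the cytosolic malic enzyme Me1, 0.34) and 1 lower, the cystine importer Slc7a11, and the median was 0.22.

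Some serine and one-carbon genes of the ATF4 response were higher in the VLCAD knockout. Of 32 ATF4 and stress response targets, 7 were lower in the libraries labelled Acadl KO and 0 higher. The median difference was -0.54, with 28 of 32 below 0. Both knockouts stood above their controls over this list, with a median of 1.16 in the libraries labelled Acadl KO (23 genes up) and 1.67 in the VLCAD knockout. Of the 7, Cdsn (direct difference -1.5) was called against control in neither knockout (-0.95 and 0.39). Its direct call was kept in 4 of the 8 fits that left out 1 library. In the difference of the effects, 0 of the 32 were called by edgeR, limma voom or DESeq2, with 10, 9 and 11 at an unadjusted p under 0.05. The list was chosen to fit a response that the series title names, so it is not independent evidence of its direction.

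**Figure D3:**
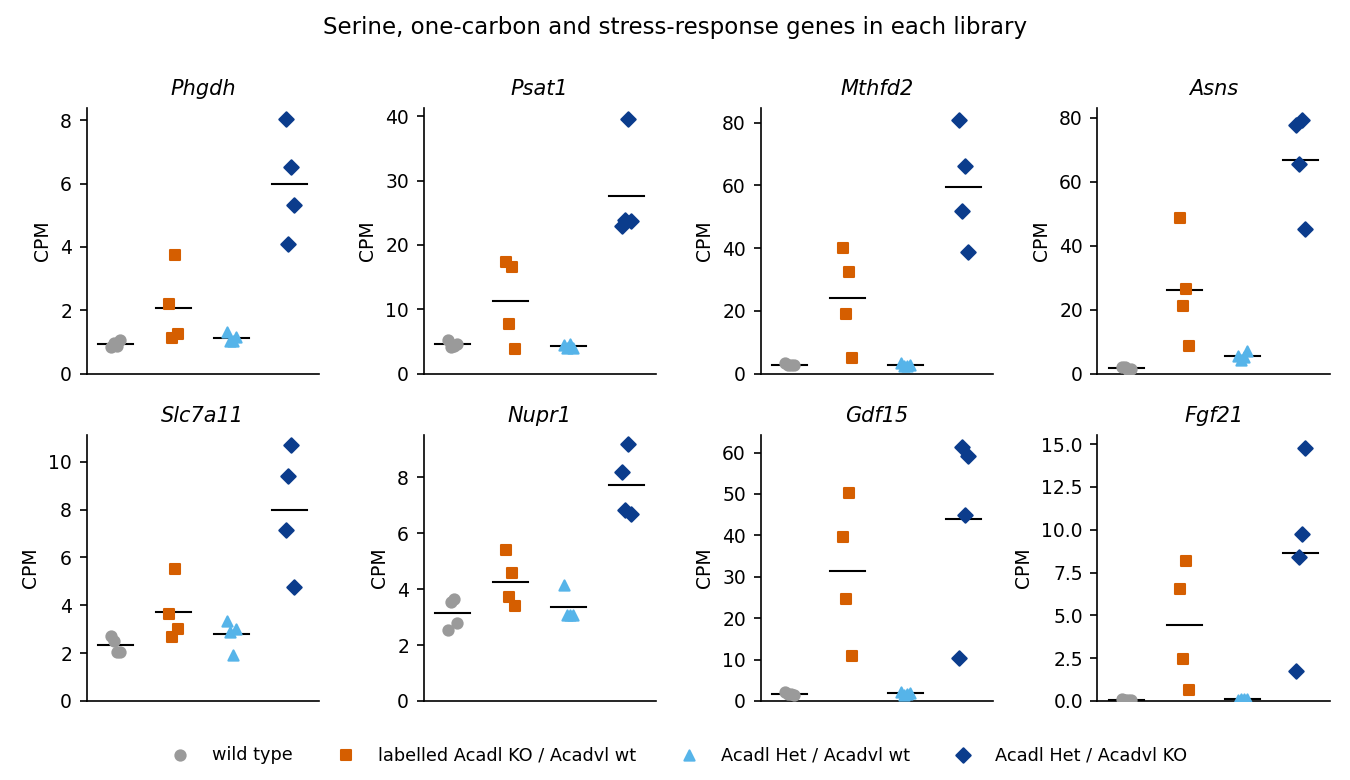
CPM (vertical axes, linear from 0) of 8 serine, one-carbon and stress-response genes in each library, with 1 point per library and a line at the mean of 4. Phgdh, Psat1 and Nupr1 did not overlap between the knockouts, while Gdf15 and Fgf21 were high and scattered in both.

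By role, the enzymes of serine synthesis came first. Phgdh, its first enzyme, read 2.21, 1.11, 3.73 and 1.25 CPM in libraries labelled Acadl KO and 8.04, 4.09, 6.52 and 5.32 CPM in the VLCAD knockout. The groups did not overlap (log2 difference -1.54, SE 0.26, edgeR adjusted p = 0.003048), and Phgdh held throughout. Psat1, the next enzyme, read 17.4, 7.66, 16.6 and 3.79 CPM against 23, 23.9, 39.6 and 23.8 CPM. It too showed no overlap (-1.33, SE 0.29, edgeR adjusted p = 0.0167). Mthfd2, a mitochondrial folate enzyme that uses serine-derived carbon, read 40.2, 19.1, 32.3 and 4.88 CPM against 80.9, 51.7, 66.1 and 38.8 CPM, where replicate 1 labelled Acadl KO reached into the range of the VLCAD knockout (-1.39, SE 0.34, edgeR adjusted p = 0.0291). Its partner Mthfd1l differed by -0.79. Together these were the 4 of 18 serine, glycine and one-carbon genes called, all lower in the libraries labelled Acadl KO (median -0.21).

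Most called genes of amino acid supply showed the same order in level. Asns, asparagine synthetase, read 48.7, 21.2, 26.6 and 8.74 CPM in libraries labelled Acadl KO and 77.7, 65.5, 79.3 and 45.4 CPM in the VLCAD knockout. Wild type stood at 1.71 CPM and the Acadl Het / Acadvl wt control at 5.52 CPM. Replicate 4 labelled Acadl KO was the lowest of the 8 (-1.38, SE 0.35, edgeR adjusted p = 0.03383). Against these controls the order was not the same, with a rise of 3.83 in the libraries labelled Acadl KO and 3.47 in the VLCAD knockout. The 2 effects were not shown to differ (edgeR adjusted p = 0.8097). The direct call of Asns was kept in 3 of the 8 fits that left out 1 library. Of 23 amino acid transporters, 5 were lower and 0 higher in the libraries labelled Acadl KO (median -0.32). Slc7a3, a carrier of cationic amino acids, read 0.879, 0.238, 0.404 and 0.284 CPM against 2.22, 1.12, 2.60 and 1.09 CPM (-1.97, SE 0.33, edgeR adjusted p = 0.002865). Slc7a11, the cystine importer, read 3.65, 2.68, 5.50 and 3.01 CPM against 7.14, 9.41, 10.7 and 4.76 CPM, with replicate 3 labelled Acadl KO above replicate 4 of the VLCAD knockout (-1.09, SE 0.21, edgeR adjusted p = 0.007809). Both held throughout, and Slc7a11 was also called within batch 2. Slc1a3, Slc7a7 and Slc36a1 differed by -0.88, -0.83 and -0.50. In the VLCAD knockout they stood at 0.41, 0.13 and 0.06 against its control, with no call. Slc36a1 was below wild type in the libraries labelled Acadl KO (-0.44, edgeR adjusted p = 0.01351). Their direct calls were kept in 2, 6 and 4 of the 8 fits that left out 1 library. The cytosolic synthetases, which load tRNAs with amino acids, had 1 gene lower (Gars, -0.49) and 1 higher (Tarsl2, 0.30) of 21.

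Other stress genes divided into those that separated the knockouts and those that did not. Nupr1, a stress-induced chromatin protein, read 5.41, 3.71, 4.57 and 3.41 CPM against 8.18, 6.84, 9.19 and 6.69 CPM and held throughout (-0.86, SE 0.17, edgeR adjusted p = 0.007545). Pck2, which makes phosphoenolpyruvate in mitochondria, and Adm2, a peptide hormone, stood outside the lists, were taken up after their values were seen, and held throughout (-0.83 and -2.07). Gdf15, a secreted stress hormone, read 39.7, 24.7, 50.2 and 10.9 CPM against 10.3, 61.3, 45 and 59.2 CPM. Fgf21, another secreted hormone, read 6.55, 2.46, 8.20 and 0.616 CPM against 1.73, 8.39, 9.74 and 14.8 CPM. Both were named after their values were seen, both overlapped widely and neither was called (edgeR adjusted p = 0.5963 and 0.319). Both were far above their controls in each knockout, Gdf15 by 4.18 and 4.61 on the log2 scale. Leaving out 1 library left 3 (without replicate 2 labelled Acadl KO or replicate 3 of the VLCAD knockout) to 12 (without replicate 3 labelled Acadl KO) of the 32 targets called lower. Within batch 2, 1 was called and the median was -0.30.

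4 promoters of called genes are shown because they hold the letters TGATGNAAN, the core of the amino acid response element that ATF4 dimers bind. Each is a stretch of 100 bases upstream of the RefSeq start site (GRCm38.p6), on the strand of the gene, with matches on either strand in capitals.
Asns, chr6:7693210-7693309, minus strand: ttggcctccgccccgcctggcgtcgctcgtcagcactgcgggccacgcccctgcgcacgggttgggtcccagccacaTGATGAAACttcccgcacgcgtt
Slc7a11, chr3:50443617-50443716, minus strand: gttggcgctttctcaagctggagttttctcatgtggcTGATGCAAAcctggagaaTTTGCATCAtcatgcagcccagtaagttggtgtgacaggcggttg
Nupr1, chr7:126625528-126625627, minus strand: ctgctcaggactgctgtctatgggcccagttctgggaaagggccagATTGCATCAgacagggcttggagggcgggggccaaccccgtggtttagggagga
Gars, chr6:55037901-55038000, plus strand: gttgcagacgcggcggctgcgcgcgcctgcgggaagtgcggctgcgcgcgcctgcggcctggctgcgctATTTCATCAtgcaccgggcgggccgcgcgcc
Slc7a11 held 2 matches and the others 1. Of 13 called genes of the serine, transporter and stress groups that were looked up, 12 had a promoter sequence. Of these, 5 (the 4 above and Slc7a7) held the letters within 250 bases upstream. Of 32851 promoters, 3.44% held them. The first count is per gene, with a match in any promoter (Slc7a7 has 5), and the share is per promoter, so they are not alike. The genes also came in part from a list of ATF4 targets, so the count is not independent evidence. The windows of Phgdh, Psat1, Mthfd2, Mthfd1l, Cdsn, Slc1a3 and Slc36a1 did not hold these letters, and a match is a description of the sequence only.

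Some genes of macrophages, chemokines and matrix were higher in the VLCAD knockout than in libraries labelled Acadl KO. Of 15 macrophage and leukocyte markers, 4 were lower in the libraries labelled Acadl KO and 0 higher (median -0.69): Itgam (-1.32), Ccr2 (-1.99), C1qa (-0.64) and C1qb (-0.61). Their summed level was 281.0 to 348.3 CPM in libraries labelled Acadl KO and 348.6 to 596.3 CPM in the VLCAD knockout, and 0 markers were at 0. The common marker of all leukocytes, Ptprc, differed by -1.11 (edgeR adjusted p = 0.05297). Chemokines and their receptors had 3 of 28 lower, Ccl8 (-2.62), Ccr2 and Cxcr4 (-0.99), and matrix genes 4 of 28, namely Tnc (-2.74), Timp1 (-2.62), Tgfb2 (-0.96) and Fn1 (-0.59), with 0 higher in either. Against its own control, the VLCAD knockout had 2 macrophage markers up and 0 down (median 0.36), 2 chemokine genes up and 5 down (median -0.38) and 8 matrix genes up and 0 down (median 0.39). In libraries labelled Acadl KO these counts against wild type were 0 and 0, 2 and 0, and 6 and 2. Of the genes just named, Cxcr4 (0.90) and Fn1 (0.53) were above the VLCAD knockout's control, while Timp1 (0.02), Tnc (0.27), Itgam (0.17), C1qa (0.37), C1qb (0.36), Ccr2 (0.58), Ccl8 (0.80) and Tgfb2 (-0.34) were not called against it. These counts fell to 0 of 15 macrophage markers without replicate 2 labelled Acadl KO, or replicate 3 or 4 of the VLCAD knockout, and to 0 in all 3 lists within batch 2.

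**Figure D4:**
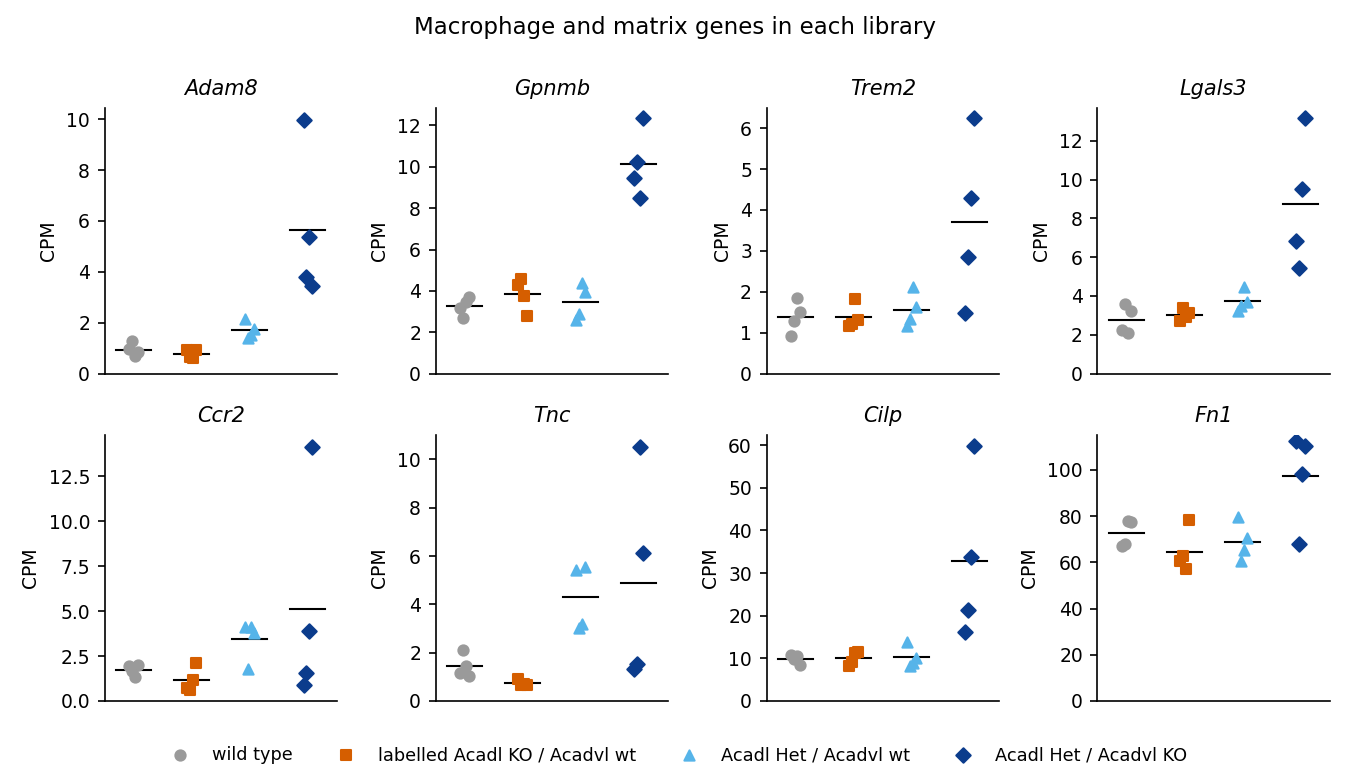
CPM (vertical axes, linear from 0) of 8 macrophage and matrix genes in each library, with 1 point per library and a line at the mean of 4. Adam8, Gpnmb, Lgals3 and Cilp did not overlap between the knockouts, and single VLCAD knockout libraries were far above the rest for Ccr2 and Tnc.

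2 macrophage-associated genes stood apart in every library and every one of those fits. Gpnmb, a lysosomal glycoprotein of activated macrophages, read 4.26, 4.56, 3.76 and 2.79 CPM in libraries labelled Acadl KO and 9.45, 10.2, 8.51 and 12.4 CPM in the VLCAD knockout (-1.40, SE 0.18, edgeR adjusted p = 0.0001868). It had risen by 1.56 against control in the VLCAD knockout and stood at 0.25 in the libraries labelled Acadl KO, and those effects differed (edgeR adjusted p = 0.0434). Adam8, a metalloprotease of leukocytes, read 0.932, 0.636, 0.605 and 0.947 CPM against 9.99, 3.79, 5.36 and 3.45 CPM (-2.84, SE 0.38, edgeR adjusted p = 0.000244). Both were also called within batch 2 and with the 8 libraries alone. Lgals3 (-1.51), the lipid-sensing receptor Trem2 (-1.39), the lysozyme Lyz1 (-1.46) and the lysosomal protease Ctsz (-0.60), taken up after their values were seen, held throughout. Levels of other genes were uneven among VLCAD knockout libraries: Ccr2, the monocyte receptor, read 0.901, 1.58, 3.88 and 14.1 CPM there, and Timp1, an inhibitor of matrix proteases, read 3.68, 3.96, 26.7 and 6.49 CPM, the highest value falling in replicate 4 for the first and replicate 3 for the second.

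Among matrix proteins, Fbln7, a fibulin, read 0.160, 0.0530, 0.177 and 0.166 CPM against 0.950, 1.71, 1.96 and 3.14 CPM (-3.76, SE 0.40, edgeR adjusted p = 1.33e-05). It was below control in the libraries labelled Acadl KO (-1.54) and above control in the VLCAD knockout (3.05), the largest called effect difference outside the 2 targeted chromosomes. Cilp, a matrix protein of cardiac fibroblasts, read 8.13, 9.19, 11.2 and 11.4 CPM against 16.1, 21.3, 33.6 and 59.8 CPM (-1.69, SE 0.34, edgeR adjusted p = 0.01123). Tnc read 0.906, 0.662, 0.706 and 0.663 CPM against 1.34, 1.55, 10.5 and 6.13 CPM. Fn1, fibronectin, read 60.5, 62.8, 57 and 78.2 CPM against 112, 67.9, 98.5 and 110.4 CPM, where replicate 2 of the VLCAD knockout fell within the other group (-0.59, SE 0.12). Fbln7, Cilp and Fn1 held throughout. Of 12 fibroblast markers, 3 were lower in the libraries labelled Acadl KO (Pi16, Mfap5 and Pdgfra) and all 12 differences were below 0 (median -0.44), with a summed level of 2421 to 2826 CPM against 2731 to 3137 CPM. The part of macrophage and fibroblast number in these differences was not tested.

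Genes of the cardiac receptor list differed in both directions. Of 20 cardiac receptors, 3 were higher and 1 lower in the libraries labelled Acadl KO. Adra1a, the alpha-1A adrenergic receptor, read 29.7, 27, 33.1 and 29.9 CPM against 17.3, 17.4, 14.5 and 21.6 CPM (0.76, SE 0.13, edgeR adjusted p = 0.002545). Both groups lay below their controls, by -0.32 and -1.31, and the effects differed (edgeR adjusted p = 0.0143). Ednrb, the endothelin B receptor, read 118, 120.2, 71.4 and 74 CPM against 43.8, 42.6, 44.3 and 45.2 CPM (1.12, SE 0.19, edgeR adjusted p = 0.003637), up against control in both (1.96 and 0.76). Chrm2, the muscarinic receptor that slows the heart, was lower in the libraries labelled Acadl KO, at 14.4, 13.9, 19.2 and 14.2 CPM against 23.2, 29.5, 29 and 22.4 CPM (-0.75, SE 0.15, edgeR adjusted p = 0.007809). It was down against control in both (-1.56 and -0.96). These 3 held throughout, and the adenosine receptor Adora2a (1.32) was not called without 2 of the 8 libraries. The T-type calcium channel Cacna1g was higher (0.97), the 1 call among 32 ion channel genes, and the sodium-calcium exchanger Slc8a1 lower (-0.35), the 1 call among 22 calcium-cycling genes. Against control, Cacna1g was down in both knockouts (-0.91 and -1.63), and Slc8a1 was called in neither (-0.15 and 0.08). The direct call of Cacna1g was kept in 4 of the 8 fits that left out 1 library. Nppa, the atrial natriuretic peptide, read 141, 204, 200.3 and 156 CPM against 400.0, 545, 463 and 374 CPM without overlap, yet was not called (log2 difference -1.34, SE 0.61, edgeR adjusted p = 0.2014). With the 8 libraries fitted alone it was called (edgeR adjusted p = 0.009208). Atrial markers as a whole had 0 of 10 called by edgeR, limma voom or DESeq2 (1 at an unadjusted p under 0.05 in edgeR), and 1 of the 8 that could be tested with the 8 libraries alone, with sums of 262.0 to 347.4 CPM against 526.6 to 697.6 CPM. Nppa is 1 of these markers and alone made up 141 to 204 CPM and 374 to 545 CPM of the sums. The gap between the sums is thus largely that of Nppa.

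In sugar metabolism, the glycogen and glycolysis lists each had 1 gene called each way, where 1.77% of all genes were higher and 2.66% lower. Stbd1, which anchors glycogen to membranes, read 8.18, 6.70, 9.79 and 6.79 CPM in libraries labelled Acadl KO, near wild type (7.40 CPM), and 17.4, 15.6, 18.5 and 16.8 CPM in the VLCAD knockout (-1.12, SE 0.17, edgeR adjusted p = 0.001253). It held throughout. The glycogen branching enzyme Gbe1 was higher (0.41), so 1 of 20 glycogen genes was called in each direction. Of 27 glycolysis genes, the lactate dehydrogenase subunit Ldhb was higher (0.33) and Pfkfb3, which makes the activator of phosphofructokinase, lower (-0.88). Egln3, an oxygen-sensing hydroxylase, was lower (-0.68) and down in both knockouts (-1.93 and -1.19). Branched-chain amino acid breakdown had 3 of 22 higher and 0 lower.

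Genes on chromosome 11, which carries Acadvl, were called more often. On that chromosome 101 of 1305 genes other than Acadvl were called (7.74%), against 2.29 to 5.64% on the other chromosomes. With both sides of Acadvl pooled, the share was 7.93% within 5 Mb, 11.5% at 10 to 20 Mb, 9.51% at 20 to 40 Mb and 3.44% beyond. Most of the genes called at 20 to 40 Mb lay on the side of higher coordinates. Of 183 called genes with a difference of 2-fold or more, 30 lay on chromosome 11 (16.4%, against 8.26% of tested genes) and 20 on chromosome 1, which holds 922 of the 15804 genes tested. Of the 24 genes whose effects differed, 11 lay on chromosome 11 and 4 on chromosome 1. Within 5 Mb of Acadl, 5 of 33 other genes were called (15.2%). Strain background near each locus, which the mixed background leaves free to differ with the genotype, was not tested.

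**Figure D5:**
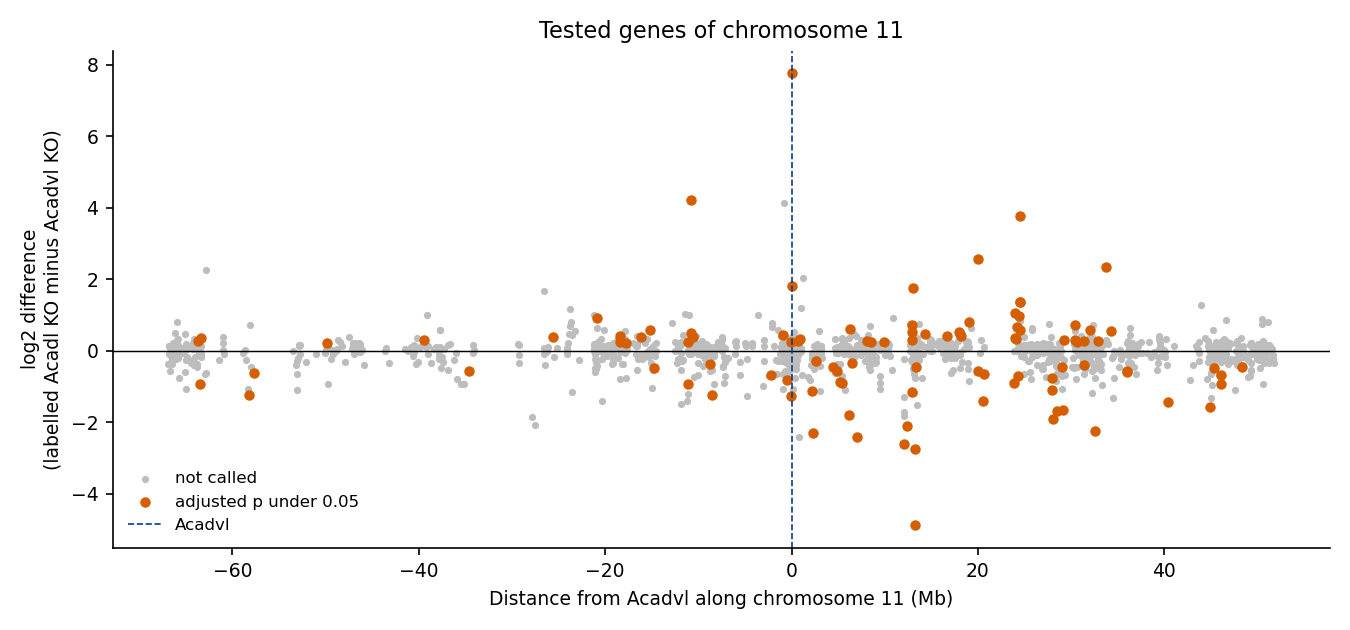
The log2 difference (vertical axis, labelled Acadl KO minus VLCAD knockout) of every tested gene of chromosome 11 against its distance from Acadvl in Mb (dashed line at 0). Orange points had an adjusted p under 0.05 and lie both above and below 0. With both sides of Acadvl pooled, their share was largest at 10 to 40 Mb. Most of those at 20 to 40 Mb lie on the side of higher coordinates.

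Acadvl, Mir324 and Dvl2 kept their call in every fit that left out 1 library, within batch 2 and with the 8 libraries alone. So did the 6 genes of chromosome 11 described next, which are not all that did. Rsad1, a radical SAM protein of mitochondria (start 94539798), read 30.5, 35.5, 27.4 and 31.6 CPM against 10.8, 12.9, 12.6 and 12.6 CPM (1.35, SE 0.12, edgeR adjusted p = 4.205e-07). It was above control in the libraries labelled Acadl KO (0.88) and below it in the VLCAD knockout (-0.35). Tmem100, a membrane protein of vascular endothelium (start 90030348), read 26, 29.9, 16 and 10.3 CPM against 4.29, 2.30, 3.22 and 3.88 CPM (2.55, SE 0.38, edgeR adjusted p = 0.001276), near control in the first and reduced in the second. Xaf1, an interferon-induced gene that promotes cell death (start 72301629), read 3.76, 3.36, 4.16 and 6.16 CPM against 15.1, 16.2, 25.8 and 28.5 CPM (-2.29, SE 0.21, edgeR adjusted p = 8.297e-07). It was the 1 gene called among 26 of the interferon response. The Schlafen gene Slfn8 (start 83002158) read 1.97, 1.59, 2.57 and 2.70 CPM against 0.511, 0.374, 0.821 and 0.912 CPM (1.74, SE 0.27), a family whose members can share reads. Fkbp10, a collagen-folding enzyme (start 100415694), read 50.4, 54.5, 51 and 54.7 CPM against 33.9, 29.2, 33 and 31.9 CPM (0.72, SE 0.09). The serotonin transporter Slc6a4 (start 76998597) read 0.293, 0.212, 0.605 and 0.213 CPM against 1.31, 1.98, 2.65 and 1.14 CPM (-2.43, SE 0.42).

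Elsewhere in the genome, Map1b, a microtubule protein, read 19.6, 18, 19.6 and 17.2 CPM against 33.2, 33.2, 36.4 and 26.8 CPM (-0.80, SE 0.10, edgeR adjusted p = 0.0001868). It rose in both knockouts, by 0.29 and 1.26, and the effects differed (edgeR adjusted p = 0.003217). Vmn2r3, annotated as a vomeronasal receptor, read 1.20, 0.609, 0.908 and 0.0947 CPM against 8.72, 3.26, 6.18 and 1.39 CPM (-2.81, SE 0.39, edgeR adjusted p = 0.0001033), from 0.0213 CPM in wild type. Adcyap1r1, the receptor of the neuropeptide PACAP, read 7.67, 3.6, 7.92 and 8.19 CPM against 17.9, 11.6, 14.7 and 18.5 CPM (-1.19, SE 0.21, edgeR adjusted p = 0.004035). All 3 held throughout. Of the 15 called genes with the widest difference in each direction, among those with a mean of at least 1 CPM, no overlap and a symbol that is not a predicted gene or clone name, those not described above were higher for Tmem52 (1.21), Nme1 (1.06), Fam212a (0.98), Cldn15 (0.97) and Lgals6 (0.92), and lower for the latent TGF-beta binding protein Ltbp2 (-1.89), the integrin Itgax of dendritic cells and macrophages (-1.76), Tnfrsf19 (-1.65) and the zinc-sensing receptor Gpr39 (-1.54). Of these 9, Nme1, on chromosome 11, held throughout. Lgals6 can share reads with its close copies, so its value is uncertain.

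Among the 11 called genes that changed in opposite directions against their controls were 2 beta subunits of voltage-gated calcium channels. Cacnb1 read 6.29, 4.87, 7.21 and 7.32 CPM in libraries labelled Acadl KO and 9.77, 9.89, 9.12 and 15.4 CPM in the VLCAD knockout, and Cacnb3 read 3.06, 3.18, 3.78 and 4.85 CPM against 5.29, 5.67, 6.02 and 7.10 CPM. Neither gene overlapped between the knockouts (-0.77 and -0.70). Cacnb1 moved by -0.59 and 0.53 against the respective controls and Cacnb3 by -0.50 and 0.42. The difference of effects was called for Cacnb1, which lies on chromosome 11 (edgeR adjusted p = 0.01087) and not for Cacnb3 (edgeR adjusted p = 0.08851). Thbs3, a thrombospondin of the matrix, read 7.86, 6.78, 6.94 and 8.81 CPM against 11.6, 11.5, 11.4 and 15.6 CPM (-0.72, SE 0.12, edgeR adjusted p = 0.003464). The rest were Acadvl, Mir324, Rsad1, Xaf1 and Fbln7, described above, Fam129a (-0.74), the Notch-modifying enzyme Lfng (-0.85) and the leukotriene-forming enzyme Alox5 (0.78).

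Many lists had 0 genes called between the knockouts by edgeR. Among them, with the genes at an unadjusted p under 0.05 given first, were mitochondrial aminoacyl-tRNA synthetases (7 of 17, median 0.13), pyruvate dehydrogenase control (10 of 14, median 0.18), cholesterol synthesis (5 of 24, median 0.01) and cytosolic ribosomal proteins (2 of 30, median 0.06). The same held for circadian clock genes (2 of 19, median 0.11), immediate early genes (1 of 24, median 0.09), cardiac stress and fetal genes (4 of 16, median -0.45) and cell division genes (3 of 12, median -0.31). DESeq2 called 2 synthetases, 2 genes of pyruvate dehydrogenase control, 1 gene each of cholesterol synthesis, the clock and cardiac stress, and 0 in the rest. The limma voom fit called 0 in all of these lists. A gene not called is not shown to be equal in the knockouts.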

How the data were processed

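Polyadenylated heart RNA was sequenced in 24 libraries, and the authors deposited unnormalised counts for every gene in every library. Per the file headers, reads over exons of UCSC mm10 genes were counted with featureCounts 1.5.2, without regard to strand, from primary alignments, and a read that overlaps more than 1 gene adds to all of them. STAR 2.5.1b, featureCounts 1.5.3, mm10 and GRCm38 are listed in the submitters' processing notes.

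Counts of all 24 libraries, in 6 genotypes, entered 1 edgeR 4.0.16 quasi-likelihood fit (R 4.3.3) with terms for genotype and RNA isolation batch, TMM scaling and filterByExpr, which kept 15804 of 24421 genes. All libraries entered so that the groups share 1 estimate of the spread. Tests were two-sided, with Benjamini-Hochberg adjustment over every tested gene and a threshold of 0.05. Levels are CPM with TMM factors. Differences are log2, labelled Acadl KO minus VLCAD knockout. The fit was tested on simulated data.

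Alternatives were other scalings and filters, limma 3.58.1, DESeq2 1.42.0, batch and library subsets, and a test against a fold of 1.5. The genes described were to be the 15 most different called genes in each direction with a mean of at least 1 CPM, no overlap and a symbol that is not a predicted gene or clone name (Gm, Rik, LOC, AA, AI or BC with a number), up to 6 called members of each of 57 gene lists, called genes within 5 Mb of Acadl or Acadvl, the acyl-CoA dehydrogenases and the 10 largest effect differences each way under the same filters. Where a list had none called, its 2 most abundant members stood in. That rule took 173 genes, not all of which are described. Outside it, and chosen after their values were seen, are 2610507I01Rik, AA465934, AI450353, Acsf2, Adm2, Alox5, Bdkrb2, Cacnb3, Ces1d, Ctsz, Fgf21, Gdf15, Gm3776, Lfng, Lgals3, Lyz1, Mlycd, Nadk2, Nnt, Nupr1, Pck2, Saraf, Thbs3 and Trem2. The members and lists were chosen with earlier results of these data known. Between libraries of a group, counts differed by more than sampling noise (chi-square per degree of freedom 25.6 to 85.2). Promoter and microRNA sequences are from RefSeq, GRCm38.p6. Replicates are numbered in accession order, and the labels do not explain the numbers in the titles.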

Additional observations from a re-analysis of the deposited data

Results flagged for a closer look

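Single libraries that stood apart from the other 3 of their group were sought for every gene described, by the gap to the nearest library as a share of the group's range, against Dixon's 95% critical value. Of 236 groups of 4 tested, 25 had such a library (10.6%). The critical value gives about 1 in 20 for independent, normally distributed values. These are CPM of chosen genes from the same 8 libraries, so whether 10.6% exceeds chance was not tested. Replicate 1 of the VLCAD knockout was high for Pfkfb3 (29.77 CPM, the others 12.03 to 14.17). Replicate 2 of the VLCAD knockout was high for Slc8a1 (492.8 CPM, the others 437.1 to 439.4). Replicate 3 of the VLCAD knockout was high for Me1 (150.1 CPM, the others 128.8 to 131), Myl1 (39.21 CPM, the others 21.59 to 22.13), Psat1 (39.56 CPM, the others 22.99 to 23.94) and Timp1 (26.69 CPM, the others 3.678 to 6.488). Replicate 4 of the VLCAD knockout was high for Cacnb1 (15.36 CPM, the others 9.125 to 9.887), Cxcr4 (8.211 CPM, the others 3.955 to 4.289), Itgax (4.182 CPM, the others 0.7064 to 1.3), Mir324 (0.02534 CPM, the others at 0), Slc36a1 (20.28 CPM, the others 15.18 to 15.99) and Thbs3 (15.56 CPM, the others 11.45 to 11.62). Replicate 1 of the VLCAD knockout was low for Acaa2 (842.9 CPM, the others 957.1 to 975.8), Bdkrb2 (0.1462 CPM, the others 0.294 to 0.3041), Rbp7 (15.25 CPM, the others 34.65 to 36.43) and Rsad1 (10.82 CPM, the others 12.57 to 12.93). Replicate 2 of the libraries labelled Acadl KO was high for Rbp7 (268.6 CPM, the others 47.98 to 84.38). Replicate 3 of the libraries labelled Acadl KO was high for Chrm2 (19.22 CPM, the others 13.86 to 14.44). Replicate 2 of the libraries labelled Acadl KO was low for Adcyap1r1 (3.603 CPM, the others 7.673 to 8.192), Fbln7 (0.05298 CPM, the others 0.1599 to 0.1766) and Lyz1 (1.828 CPM, the others 2.371 to 2.462). Replicate 3 of the libraries labelled Acadl KO was low for Cldn15 (22.32 CPM, the others 34.49 to 36.84). Replicate 4 of the libraries labelled Acadl KO was low for Me1 (149.3 CPM, the others 176.2 to 180.7), Nnt (1686 CPM, the others 1802 to 1821) and Pfkfb3 (7.458 CPM, the others 9.938 to 10.19).

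The direct test of whether the 2 effects differed, each against its own control, called these 24 genes in edgeR, adjusted over all genes. Values are the effect in the libraries labelled Acadl KO minus the effect in the VLCAD knockout (log2), followed by the effects themselves in that order. Genes on chromosome 11 gave 4.10 for 2610507I01Rik (-0.74 and -4.84), -1.41 for Dvl2 (-0.32 and 1.09), 1.87 for Acadvl (0.42 and -1.44) and 7.99 for Mir324 (1.05 and -6.94). Others on chromosome 11 gave -2.57 for Xaf1 (-0.87 and 1.71), 1.85 for Slfn8 (-0.35 and -2.20), 2.86 for Tmem100 (-0.03 and -2.89) and 1.17 for Nme1 (0.83 and -0.34). Further genes on chromosome 11 gave 1.23 for Rsad1 (0.88 and -0.35), -1.13 for Cacnb1 (-0.59 and 0.53) and 0.76 for Fkbp10 (0.09 and -0.67). Genes on chromosome 1 gave 0.57 for Acadl (0.47 and -0.10), -3.12 for Myl1 (-2.93 and 0.20), -0.54 for Lancl1 (-0.58 and -0.04) and -0.90 for Fam129a (-0.33 and 0.57). Genes on other chromosomes gave 1.12 for Acot1 (1.64 and 0.52), -2.86 for Bdkrb2 (-2.18 and 0.68), -0.97 for Map1b (0.29 and 1.26) and 0.98 for Adra1a (-0.32 and -1.31). Others on other chromosomes gave -4.58 for Fbln7 (-1.54 and 3.05), -1.31 for Gpnmb (0.25 and 1.56), -1.48 for Adcyap1r1 (-0.26 and 1.22) and 0.55 for Saraf (0.35 and -0.20). Further genes on other chromosomes gave 0.60 for Acsl1 (0.50 and -0.11). The value for Mir324 depends on the prior count and is no bound, since its VLCAD knockout libraries had 0 to 1 counts. Lancl1, Bdkrb2 and Saraf are named because of this test alone.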

How the results depend on the processing

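The 700 genes called between the knockouts became 46 with the 8 libraries alone, 54 within RNA isolation batch 2, 5 within batch 1, 77 without the libraries above 10 CPM of Alb, 22 in the test against a fold of 1.5 and 1225 with DESeq2. Leaving out 1 library gave 131 (without replicate 2 labelled Acadl KO) to 999 (without its replicate 3), with 217 without its replicate 1, and 248 and 278 without replicates 3 and 4 of the VLCAD knockout. For the VLCAD knockout against its control (3853), the 8 libraries of those groups alone gave 1984 and batch 1 gave 208. For the libraries labelled Acadl KO against wild type (5874), batch 1 gave 86. The 24 differences of effects became 129 with DESeq2, 6 in batch 2 and 1 in batch 1, and 17 to 60 without 1 library, highest without replicate 3 labelled Acadl KO. Batch 1 has 1 library per knockout, assumed to vary like the other groups. Fewer samples entered these subsets, and the cause of the other shifts was not tested. Other scalings and filters, limma voom, no batch term and leaving out the library rich in Rn45s gave 555 to 685 genes between the knockouts. Of the genes described, 55 of 114 called kept their call in every fit without 1 library. 1 difference changed sign, Cldn5 within batch 1 (-0.24). List counts per alternative, and calls kept in all 8 such fits, were chosen after seeing the data. No paired analysis was possible because the labels name no replicate numbers, and the groups of each comparison share fewer than 2 of the first numbers in the titles, whose meaning is not explained.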

Other observations

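A pair of unnamed transcripts on chromosome 11, AA465934 (start 83291699, mm10) and AI450353 (start 83293430), which overlap, was chosen after the values were seen. AA465934 read 0.666, 0.742, 0.757 and 0.805 CPM in libraries labelled Acadl KO and 19.8, 23.0, 23.3 and 21.4 CPM in the VLCAD knockout (log2 difference -4.88, SE 0.94). Across all 24 libraries it followed the Acadvl label in steps, with a median of 0.666 CPM in the 12 labelled wt, 9.57 CPM in the 8 labelled Het and 22.2 CPM in the 4 labelled KO. A few libraries stood outside their step: Acadl Het / Acadvl wt replicate 3 read 10.1 CPM, while Acadl KO / Acadvl Het replicate 5 read 0.656 CPM and Acadl Het / Acadvl Het replicate 1 read 0.961 CPM. AI450353 spanned 0.823 to 3.95, 0.781 to 6.62 and 6.70 to 8.19 CPM in the same 3 sets. 2610507I01Rik, also on chromosome 11, ran the other way, at 9.30 to 25.3 CPM in wt, 5.44 to 16.8 CPM in Het and 0.401 to 1.07 CPM in KO.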
